A study of Mus musculus with 2 samples.

Results

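Resident Kupffer cells that were not dividing were studied in single-cell RNA libraries of SLC22A18-/- and SLC22A18+/+ mouse liver. They were taken by a rule on raw UMIs, the unique molecular identifiers that each count 1 captured mRNA. A member had 300 or more detected genes, and mitochondrial UMIs made up no more than 20% of its total. Its Clec4f, Vsig4, Timd4 and Cd5l UMIs summed to at least 3. It held at most 2 UMIs of the endothelial genes Stab2 and Ptprb, at most 1 of the lymphocyte genes Cd3e and Cd79a, and at most 1 of the division genes Mki67 and Top2a. The rule found 2302 members among 24537 barcodes, 1229 in the knockout library and 1073 in the wild-type library. The levels of these marker genes chose the members and are given as a description only.

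Kupffer cells are the macrophages of the liver sinusoids. They are seeded before birth, renew themselves in place, and take up microbes, lipoproteins, complement-coated particles, dying cells and aged red cells from the blood, whose heme iron they recycle. Clec4f is a lectin found on mouse Kupffer cells, Vsig4 a complement receptor, Timd4 a receptor for phosphatidylserine on dying cells, and Cd5l a secreted scavenger protein. Slc22a18 encodes a membrane transporter of the major facilitator type and lies in an imprinted domain of chromosome 7, where the maternal copy is the active one.

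Each genotype was represented by 1 liver library made with a droplet 3' kit, and the series title ties SLC22A18 to short stature, allergy and fatty liver through β-catenin and Ascl2. Strain, age, the number of mice behind each library and the design of the deleted allele were not given in the labels. Cells of 1 library are not replicates, and with 1 library per group no test between genotypes was possible. Intervals are 95% intervals from the counts and cover counting error only, so a difference between these livers cannot be told apart from a difference between any 2 mice or preparations. The libraries held 103478998 UMIs on 11741 barcodes (knockout) and 105556354 on 12796 (wild type), and 11458 and 12431 barcodes passed the limits on genes and mitochondrial UMIs. They shared 38 barcode sequences, and no barcode was a member in both.

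The label was checked against 9 macrophage genes that the rule did not use, namely Adgre1, Csf1r, C1qa, C1qb, C1qc, Marco, Folr2, Cd163 and Clec1b. In 916 of the 1229 knockout members (74.5%) and 800 of the 1073 wild-type members (74.6%) these genes made up at least 20 of every 10000 UMIs. Those 1716 barcodes are called macrophage-rich members, a set defined after the data were seen. It is a range of a score and not a type: 153 and 131 members lay between 10 and 40 per 10000. The other 313 and 273 members had a median of 2.32 and 2.48 such UMIs per 10000, against 144 and 153 in the macrophage-rich members. Their markers therefore go against the label.

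The members outside the macrophage-rich set were large barcodes, with a median of 11262 and 11349 UMIs against 3136 and 3389 within it. A list of 14 hepatocyte genes made up 3.52% and 3.36% of their pooled UMIs, against 0.656% and 0.756% in the macrophage-rich members. Barcode by barcode the gap was smaller, with median hepatocyte shares of 1.83% and 1.92% against 0.933% and 0.884%. At least 2% of UMIs came from the list in 39.6% and 44% of them, and in 29.5% and 30.5% of the macrophage-rich members. Their median rule sum was 4 UMIs in each library, just inside the limit, against 25 and 27.5. The macrophage-rich members held 52.7% and 55.3% of all members' UMIs, so sums over all members carry much RNA of the others. Results are therefore given for the macrophage-rich members first and for all members beside them.

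The share of macrophage-rich barcodes climbed with the rule sum. Of the barcodes with a sum of 2, just outside the rule, 11.6% of 476 (knockout) and 12.1% of 480 (wild type) passed the macrophage-gene limit. Of those with a sum of 3, just inside it, 16.9% of 183 and 25.5% of 161 passed. The share was 53.3% and 50% at sums of 4 to 5, and 99.8% and 100% at sums of 30 or more. At the endothelial limit, 264 and 238 members held 2 UMIs of Stab2 and Ptprb, while 189 and 153 barcodes with 3 were left out.

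**Figure D1:**
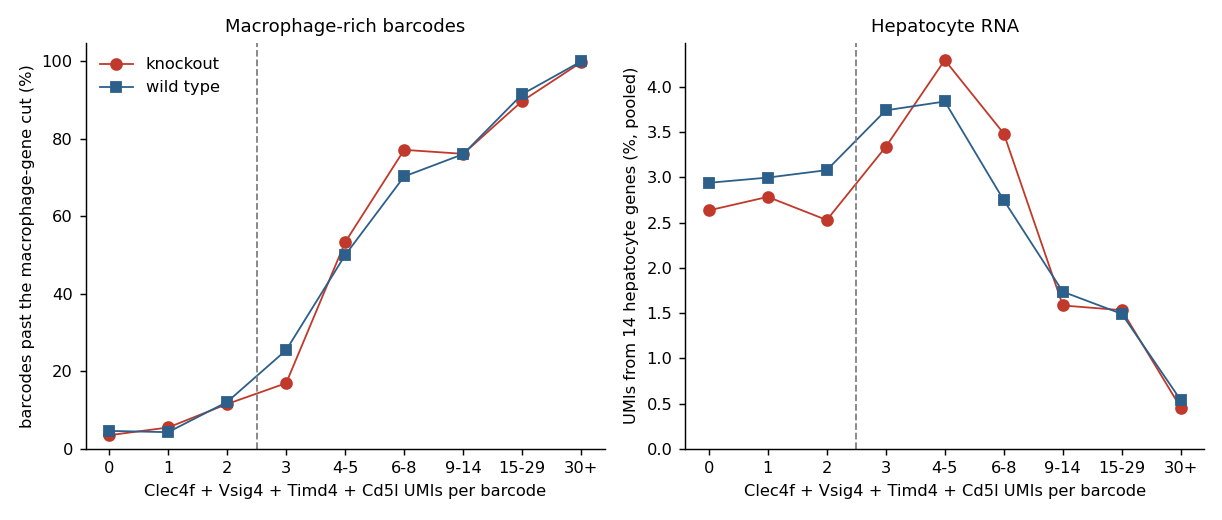
Barcodes that met every other part of the rule are grouped by their sum of Clec4f, Vsig4, Timd4 and Cd5l UMIs (horizontal axis; the dashed line is the rule's limit of 3). The left panel shows the percentage past the macrophage-gene limit, which went from 16.9% and 25.5% at a sum of 3 to 99.8% and 100% at 30 or more, and the right panel shows the pooled percentage of UMIs from 14 hepatocyte genes in each library.

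Genes outside both the rule and the macrophage-gene limit were used to describe identity, with every barcode thinned to 1242 UMIs so that depth was equal. Thinning left out 222 knockout and 201 wild-type macrophage-rich members that were shallower. Nr1h3, which encodes the liver X receptor alpha that maintains Kupffer cells, had a UMI in 36.3% (knockout) and 39.9% (wild type) of them. B cells, which should lack it and were used to show the background, gave 0.83% and 1.75%. Spic, the transcription factor of iron-recycling macrophages, was seen in 21.5% and 17.4%, against 0.62% and 0.15% in B cells. Id3, a regulator needed for Kupffer cell development, was seen in 55.2% and 57.9%, against 9.32% and 10.7% in B cells and 32.5% and 35.4% in monocyte-gated barcodes. Median depths before thinning were 3136 and 3389 UMIs in the macrophage-rich members and 3836.5 and 4064 in B cells. Unthinned shares for Nr1h3 were 60.6% and 63.8%, for Spic 43.6% and 42.6%, and for Id3 66.6% and 69.4%.

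Surface genes of Kupffer cells were seen at similar shares in each library. The lectin gene Fcna (ficolin A) was seen in 62.0% and 66.4% of thinned macrophage-rich members, the C-type lectin gene Cd209f in 13.5% and 14%, and Siglec1, a sialic-acid receptor, in 9.80% and 8.85%. Of the monocyte genes, Ccr2, the receptor that draws monocytes out of the marrow, was seen in 0.14% and 0.83%, and the antigen gene Ly6c2 in 0.58% and 0.33%. Gata6, which marks peritoneal macrophages, was seen in 0.43% and 0.33%. The monocyte gene Cx3cr1, a chemokine receptor, was seen in 2.74% and 3.17%, against 1.04% and 0.88% of B cells, and Plac8 of the same list in 57.9% and 53.5% of unthinned macrophage-rich members. At least 4 UMIs of the monocyte markers were held by 26.9% and 21.8% of the macrophage-rich members. The part of monocyte RNA was not tested.

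**Figure D2:**
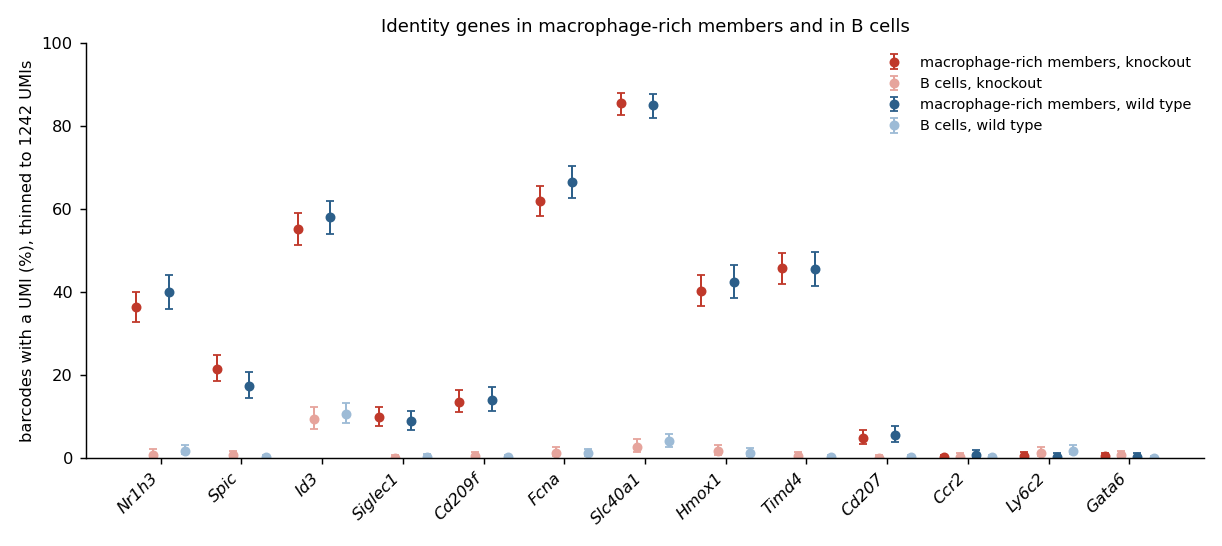
Percentage of barcodes with at least 1 UMI (vertical axis) of 13 genes after thinning to 1242 UMIs, in macrophage-rich members (dark) and B cells (pale) of the knockout (red) and wild-type (blue) libraries, with 95% counting intervals. Slc40a1, Fcna, Id3 and Nr1h3 lie far above the B cells, while Ccr2, Ly6c2 and Gata6 lie near 0 in both.

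Timd4, the marker of long-lived Kupffer cells, was seen more often in deeper barcodes, and the part of depth itself was not tested. Among macrophage-rich members with at least 5000 UMIs, 96.6% of 377 (knockout) and 96.2% of 343 (wild type) had a Timd4 UMI. Among those under 2000 UMIs the shares were 34.3% of 347 and 34.1% of 308. At 5000 UMIs or more, Nr1h3 reached 92.0% and 93.3%, Spic 79.6% and 75.8%, and Cd207, the lectin langerin, 24.7% and 30.3%. The libraries lay within each other's intervals for Timd4 at each depth. All 4 rule markers were present together in 61.8% and 60.8% of macrophage-rich members. Cd5l gave 42.9% and 40.7% of the marker UMIs, Clec4f 31.7% and 33.3%, Vsig4 20.3% and 20.7%, and Timd4 5.13% and 5.32%.

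Members made up 10.7% of kept barcodes in the knockout library (interval 10.2% to 11.3%) and 8.63% in the wild-type library (8.14% to 9.14%), a ratio of 1.24 (1.15 to 1.34). Macrophage-rich members made up 7.99% (7.50% to 8.51%) and 6.44% (6.01% to 6.88%), again a ratio of 1.24 (1.13 to 1.36). The macrophage-rich share of the members was the same in each library, with a ratio of 1.0 (0.953 to 1.05). These shares depend on how many cells of every type survived dissociation, which was not tested.

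Slc22a18 (ENSMUSG00000000154, chromosome 7, 143473736 to 143499334, GRCm38) was low in Kupffer cells of each library. Over all members it had 239 UMIs in the library labelled knockout and 265 in the wild type, which is 22.7 and 29.4 CPM (UMIs per 1000000 UMIs of the same barcodes). The ratio was 0.773 (0.647 to 0.925). In the macrophage-rich members it had 40 and 79 UMIs, 7.21 and 15.8 CPM, a ratio of 0.455 (0.303 to 0.674). After thinning, that ratio was 0.777. A UMI was seen in 3.82% and 8.38% of unthinned macrophage-rich members, against 1.78% and 2.24% of B cells. In the hepatocyte-gated barcodes the ratio was 1.0. Transcripts were thus still counted in the library labelled knockout, and a 3' count outside a deleted part checks nothing about the allele.

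Genes were called by a size rule: at least 50 UMIs over the libraries, a CPM ratio of at least 2 either way, an interval that excludes 1, and a UMI in at least 5% of members of the higher library. In the macrophage-rich members 40 of 9673 genes tested were called, or 0.414%. Of these, 21 were higher in the knockout library (0.217%) and 19 lower (0.196%). Some called genes were far higher in hepatocyte-gated barcodes. Serpina1e had 35.0 (knockout) and 86.8 CPM (wild type) here against 293 and 731 there. Cyp4a10 had 18.0 and 5.61 against 110 and 55.6, and Alas1 37.5 and 18.6 against 292 and 150. The part of hepatocyte RNA in these calls was not tested. The median log2 ratio over 12867 genes was 0.00. At a ratio of at least 1.5, 205 genes were called (2.12%), 106 higher (1.1%) and 99 lower (1.02%). Genes named from this set that all members did not call were chosen after their values were seen.

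**Figure D3:**
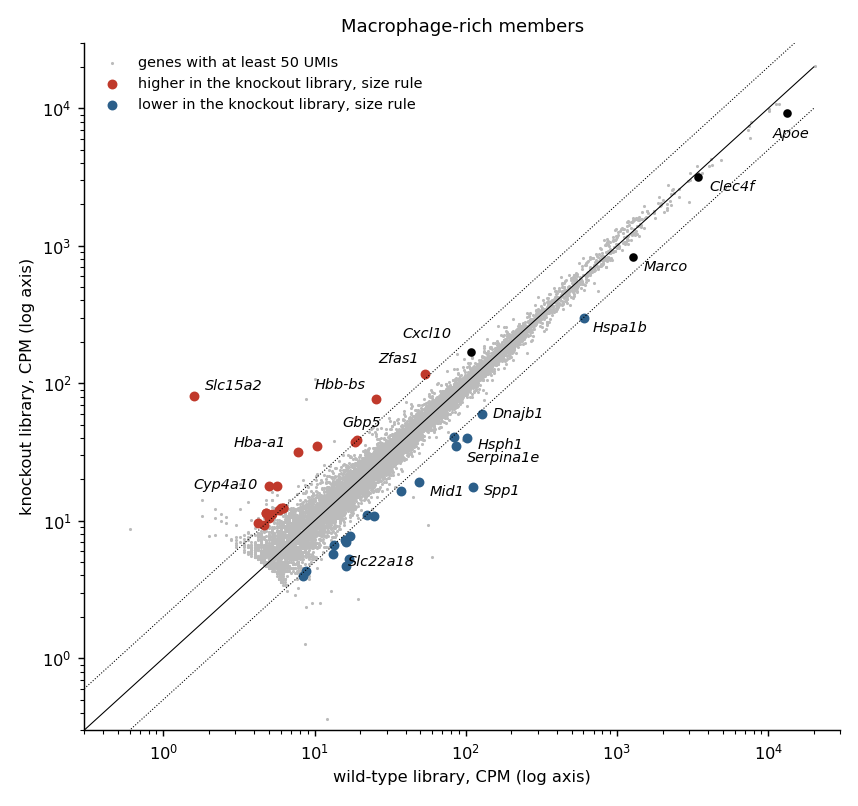
CPM of each gene in macrophage-rich members of the wild-type library (horizontal, log axis) and the knockout library (vertical, log axis), with the line of equality and dotted lines at 2-fold. The 21 genes called higher (red) and 19 called lower (blue) are few beside the grey genes, and Slc15a2 stands farthest from the line at 81.3 and 1.60 CPM.

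Slc15a2, which encodes the proton-coupled peptide transporter PEPT2 and lies on chromosome 16 (36750177 to 36784962, GRCm38), rose most. It had 451 UMIs in 179 macrophage-rich knockout members and 8 UMIs in 8 wild-type members. That is 81.3 and 1.60 CPM, a ratio of 50.7 (25.5 to 118). At 5000 UMIs or more, 39.8% of knockout and 2.04% of wild-type macrophage-rich members had a UMI. The 5 richest cells held 12.9% of the knockout UMIs, so the counts were spread over many cells. Monocyte-gated barcodes gave a ratio of 181, B cells 50.6, and barcodes with Kupffer and endothelial markers together 151. Endothelial-gated barcodes held 1766 and 2 UMIs, a ratio of 973, and hepatocyte-gated ones 218 and 0 UMIs. The gene was thus higher in each of these classes and not in Kupffer cells alone.

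Genes of 3 heat shock proteins fell. Hspa1b, an inducible Hsp70 gene, had 1662 and 3007 UMIs, or 299 and 603 CPM, a ratio of 0.497 (0.468 to 0.528). Its share of macrophage-rich members was 37.7% and 46.6% unthinned, and 22.6% and 35.1% thinned. Hsph1, an Hsp110 co-chaperone, had 39.8 and 101 CPM, a ratio of 0.393 (0.334 to 0.462). Dnajb1, an Hsp40 co-chaperone, had 59.3 and 128 CPM, a ratio of 0.464 (0.405 to 0.530). Hspa1a, the twin of Hspa1b, had 471 and 743 CPM and a ratio of 0.634 (0.603 to 0.666), short of the rule; reads of these near-identical genes may be split between them.

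Other chaperone genes did not reach the rule. Hsp90aa1, an inducible Hsp90 gene, had a ratio of 0.733 (0.682 to 0.788), and Hspa8, the constitutive Hsp70 gene, 0.953 (0.917 to 0.990). Among immediate early genes, which dissociation of tissue is known to induce, Fos was at 1.02 (0.994 to 1.04) and Jun at 0.894 (0.868 to 0.921). Egr2, a zinc-finger factor of the same list, had 220 and 130 UMIs, or 39.6 and 26.1 CPM, a ratio of 1.52 (1.22 to 1.90). Of the 24 genes of the immediate early and heat shock list, 3 were called lower and none higher, and the median log2 ratio was −0.07. Over 13 processing settings Hspa1b ran from 0.487 to 0.524, Hsph1 from 0.316 to 0.550 and Dnajb1 from 0.411 to 0.551. Hspa1b was lower outside Kupffer cells too, at 0.406 in hepatocyte-gated barcodes, 0.581 in monocytes and 0.511 in B cells.

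Mid1, an X-linked ubiquitin ligase gene, fell from 48.7 to 19.3 CPM between the wild-type and knockout libraries, on 243 and 107 UMIs, a ratio of 0.396 (0.312 to 0.499). It was seen in 37.6% of wild-type and 15.9% of knockout macrophage-rich members with at least 5000 UMIs. Without the 5 richest cells of each library its ratio was 0.351. In other classes Mid1 was at 0.369 (0.266 to 0.505) in B cells, 0.745 in monocytes and 0.774 in hepatocyte-gated barcodes. It was at 0.760 in barcodes with Kupffer and endothelial markers together and 0.995 (0.957 to 1.03) in endothelial-gated ones. Xist, the noncoding RNA that silences an X chromosome, had 706 and 663 CPM.

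Among the genes that rose, Zfas1, a noncoding host RNA of small nucleolar RNAs, had the most UMIs. It had 650 and 269 UMIs, or 117 and 53.9 CPM, a ratio of 2.17 (1.88 to 2.51). Gas5, another such host RNA, gave 262 and 164 CPM, a ratio of 1.60 (1.47 to 1.74) that missed the rule. Gbp5, an interferon-induced guanylate-binding protein that promotes inflammasome assembly, rose from 19 to 38.7 CPM, a ratio of 2.03 (1.59 to 2.62). Alas1, the first enzyme of heme synthesis, rose from 18.6 to 37.5 CPM, a ratio of 2.01 (1.57 to 2.60). Its ratio was 1.94 in hepatocyte-gated barcodes and 2.09 in monocytes. Over 13 processing settings Zfas1 stayed past 2-fold, between 2.09 and 2.25, while Gbp5 ran from 1.34 to 2.27 and Alas1 from 1.53 to 2.15.

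A few cells carried several of the called differences. Spp1, which encodes osteopontin, had 97 and 559 UMIs, a ratio of 0.156 (0.124 to 0.194), but 5 wild-type cells held 77.8% of the wild-type UMIs. Without the 5 richest cells of each library the ratio was 0.512 (0.377 to 0.690). Clu, which encodes the chaperone clusterin, went from 0.485 to 0.840 (0.692 to 1.02), and Ccn1, a matricellular protein gene, from 0.310 to 0.477. The cholangiocyte list, which holds Spp1, summed to 0.193 and 1.20 UMIs per 10000 macrophage-rich UMIs, while Krt19, a defining cholangiocyte marker, had 0 and 4 UMIs. The part of cholangiocyte RNA in these values was not tested.

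All 4 measured haemoglobin genes rose, and 5 knockout cells held between 45.6% and 48.9% of the knockout UMIs of each. Hbb-bs had 423 and 127 UMIs, a ratio of 2.99 (2.45 to 3.68), and 1.69 (1.34 to 2.13) without the 5 richest cells of each library. Hba-a1 had 175 and 39 UMIs, a ratio of 4.03 (2.84 to 5.86), and 2.53 (1.68 to 3.92) without them. The erythroid list summed to 1.62 and 0.491 UMIs per 10000. Monocyte-gated barcodes gave 12.5 for Hbb-bs, and hepatocyte-gated ones 0.962; the part of free red cell RNA was not tested.

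The neutrophil genes S100a8 and S100a9 had 426 and 44 and 597 and 50 UMIs in the macrophage-rich members. They were not tested: every gene of the neutrophil list with at least 50 UMIs was set aside as possible free RNA. A UMI was also present in only 3.17% and 4.59% of knockout members, under the 5% of the size rule. In each case 5 cells held 73.9% of the knockout UMIs. Ly6g, a defining neutrophil marker, was at 0 in each library. The macrophage elastase gene Mmp12 had 15 and 97 UMIs, with 69.1% of the wild-type UMIs in 5 cells. Mmp12 was picked after its values were seen.

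Identity genes gave no call. None of the 20 measured genes of the Kupffer surface list was called, 6 had a ratio above 1, and the median log2 ratio was −0.07. Only 0.414% of all genes tested were called, so the lack of a call in so short a list says little. The same limit applies to every list without a call. Measured genes had at least 20 UMIs, while a call needed at least 50, so some measured genes were not tested. The list holds genes that chose the cells, such as Marco, so these values are a description only. The largest departure was Marco, a scavenger receptor for bacteria, with 4622 and 6374 UMIs, or 833 and 1277 CPM, a ratio of 0.652 (0.628 to 0.677). It was seen in 41.4% of knockout and 49.2% of wild-type thinned macrophage-rich members, and its ratio was 0.673 without the 5 richest cells of each library. Marco is also 1 of the 9 genes that define the macrophage-rich set. Over all members, chosen without it, the ratio was 0.621 (0.598 to 0.645). That value is no separate check, because 4622 of 4672 knockout and 6374 of 6450 wild-type Marco UMIs lay in the macrophage-rich members. Fcna had a ratio of 0.844 (0.816 to 0.873), Siglec1 0.967 (0.839 to 1.11) and Clec4f, a rule gene, 0.924.

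Transcription factors of Kupffer cells likewise gave no call among 25 measured genes, with 7 ratios above 1 and a median log2 ratio of −0.06. Nr1h3 was level, at 409 and 421 CPM and a ratio of 0.973 (0.916 to 1.03). So was Id3, at 1176 CPM in each library and a ratio of 0.999 (0.965 to 1.04). Spic had 271 and 223 CPM, a ratio of 1.22 (1.12 to 1.31). Klf4, a zinc-finger factor of myeloid cells, had 368 and 489 CPM, a ratio of 0.752 (0.709 to 0.798). Among niche receptors, Csf1r, the growth factor receptor that macrophages depend on, had a ratio of 0.919. Csf1r is among the genes that define the macrophage-rich set. Tgfbr1, a TGF-β receptor, was at 0.769 (0.675 to 0.875).

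Genes for the removal of dying cells were mostly on the lower side. Of 23 measured genes of the efferocytosis and C1q list, 4 had a ratio above 1, none was called, and the median log2 ratio was −0.16. C1qa, a chain of the complement component that tags dying cells, had 4177 and 4866 CPM, a ratio of 0.858 (0.843 to 0.874). C1qa, C1qb and C1qc are among the 9 genes that define the macrophage-rich set. Over all members, chosen without them, C1qa was at 0.820 (0.806 to 0.835), and the list's median was −0.16 with 5 of 23 ratios above 1. All members include the macrophage-rich ones, so these values are no separate check. Axl, a receptor tyrosine kinase that bridges to dying cells, had 433 and 519 CPM, a ratio of 0.834 (0.789 to 0.882). Mertk, its relative, was at 0.969 (0.931 to 1.01). Across 13 processing settings the list's median stayed between −0.17 and −0.08.

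Iron and heme genes were level as a list. It gave no call among 24 measured genes, with 12 ratios above 1 and a median log2 ratio of 0.00. Steap4 of this list was called higher over all members, on 384 and 149 UMIs, a ratio of 2.21 (1.82 to 2.69). In the macrophage-rich members its ratio was 2.06 (1.39 to 3.10), but it was set aside as possible free RNA. Slc40a1, the iron exporter ferroportin, had 1993 and 1966 CPM, a ratio of 1.01 (0.987 to 1.04). Hmox1, the heme oxygenase that opens the heme ring, had 819 and 835 CPM, a ratio of 0.981 (0.940 to 1.02). The ferritin heavy chain gene Fth1 had 6040 and 7600 CPM, a ratio of 0.795 (0.783 to 0.806), while the light chain gene Ftl1 was at 0.987 (0.974 to 1.0). Blvrb, the biliverdin reductase B gene, had a ratio of 1.18 (1.12 to 1.25).

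Lipid genes split between directions. None of 29 measured genes of the cholesterol and lipid list was called, 16 had a ratio above 1, and the median log2 ratio was 0.01. Apoe, the apolipoprotein that macrophages secrete, had 9246 and 13322 CPM, a ratio of 0.694 (0.686 to 0.702). Scd1, the enzyme that desaturates stearate, had 85.2 and 136 CPM, a ratio of 0.625 (0.555 to 0.704). Abca1, which exports cholesterol, was at 0.958 (0.921 to 0.998). Hilpda, a lipid-droplet protein that inhibits lipolysis, had 209 and 137 CPM, a ratio of 1.52 (1.39 to 1.68).

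Of the lipid-associated macrophage list, 18 genes were measured and 12 tested, 5 had a ratio above 1, and Spp1 was the only one called. Trem2, the lipid receptor that defines such macrophages, had 172 and 168 UMIs, a ratio of 0.920 (0.740 to 1.15). Gpnmb, another of their markers, had 3 and 4 UMIs.

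Inflammatory cytokine genes lay on the higher side without a call. Of 13 measured cytokine genes 12 had a ratio above 1, none of the 9 tested was called, and the median log2 ratio was 0.18. The cytokine gene Tnf had 96.9 and 68.9 CPM, a ratio of 1.41 (1.23 to 1.61), and Il18 had 154 and 110 CPM, a ratio of 1.40 (1.25 to 1.56). Il1b, the inflammasome product, was level at 435 CPM in each library, with a ratio of 1.0 (0.945 to 1.06). The list's median stayed between 0.16 and 0.30 over 13 settings in the macrophage-rich members. Over all members it was 0.06, and Tnf had a ratio of 1.05 (0.926 to 1.18).

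The NF-κB feedback and chemokine lists also lay on the higher side, though near 0 in some settings. Nfkbia, the inhibitor that NF-κB induces to shut itself off, had 1316 and 987 CPM, a ratio of 1.33 (1.29 to 1.38). Of 19 measured genes of that list, 13 had a ratio above 1 and the median log2 ratio was 0.16. Of 21 measured chemokine and receptor genes, 13 had a ratio above 1 and the median was 0.09. Over 13 settings the NF-κB median ran from −0.001 to 0.18 and the chemokine median from 0.0007 to 0.26. Over all members the NF-κB median was 0.05, with a range of −0.24 to 0.16. Such values were not particular to inflammatory genes: the clock list had a median of 0.17, with 13 of 17 measured genes above 1. The neutrophil attractant gene Cxcl2 had 1493 and 1181 CPM, a ratio of 1.26 (1.22 to 1.31), and Cxcl10, which draws T cells, 169 and 108 CPM, a ratio of 1.56 (1.40 to 1.74). Ccl24, an eosinophil attractant, had 753 and 557 CPM, a ratio of 1.35 (1.29 to 1.42).

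Some chemokine genes ran the other way or rested on few cells. Cxcl16 had a ratio of 0.769 (0.704 to 0.841), and Ccl2, the monocyte attractant, 0.929 (0.834 to 1.03). Cxcl9, chosen after its values were seen, had 211 and 67 UMIs, a ratio of 2.83, but 5 knockout cells held 81.0% of the knockout UMIs, and without the 5 richest cells of each library the ratio was 1.12 (0.687 to 1.84). Cxcl10 stayed at 1.58 without its 5 richest cells of each library. Hepatocyte RNA in the macrophage-rich members was 0.656% and 0.756% of UMIs, and the monocyte list summed to 8.33 and 6.96 UMIs per 10000; their part in these values was not tested.

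Interferon and antigen-presentation genes differed little. In the interferon list 19 of 26 measured genes had a ratio above 1, with a median log2 ratio of 0.05 and no call. Rsad2, the antiviral enzyme viperin, had 258 and 184 CPM, a ratio of 1.41 (1.29 to 1.53). H2-Aa, a class II chain, was at 1.03 (0.983 to 1.08). Over all members it was at 0.859 (0.829 to 0.890), and Cd74, the class II invariant chain, was at 0.798 (0.781 to 0.815). Markers of dendritic cells reached at least 5 UMIs in 6.71% and 9.52% of members outside the macrophage-rich set, against 0.546% and 0.625% within it.

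**Figure D4:**
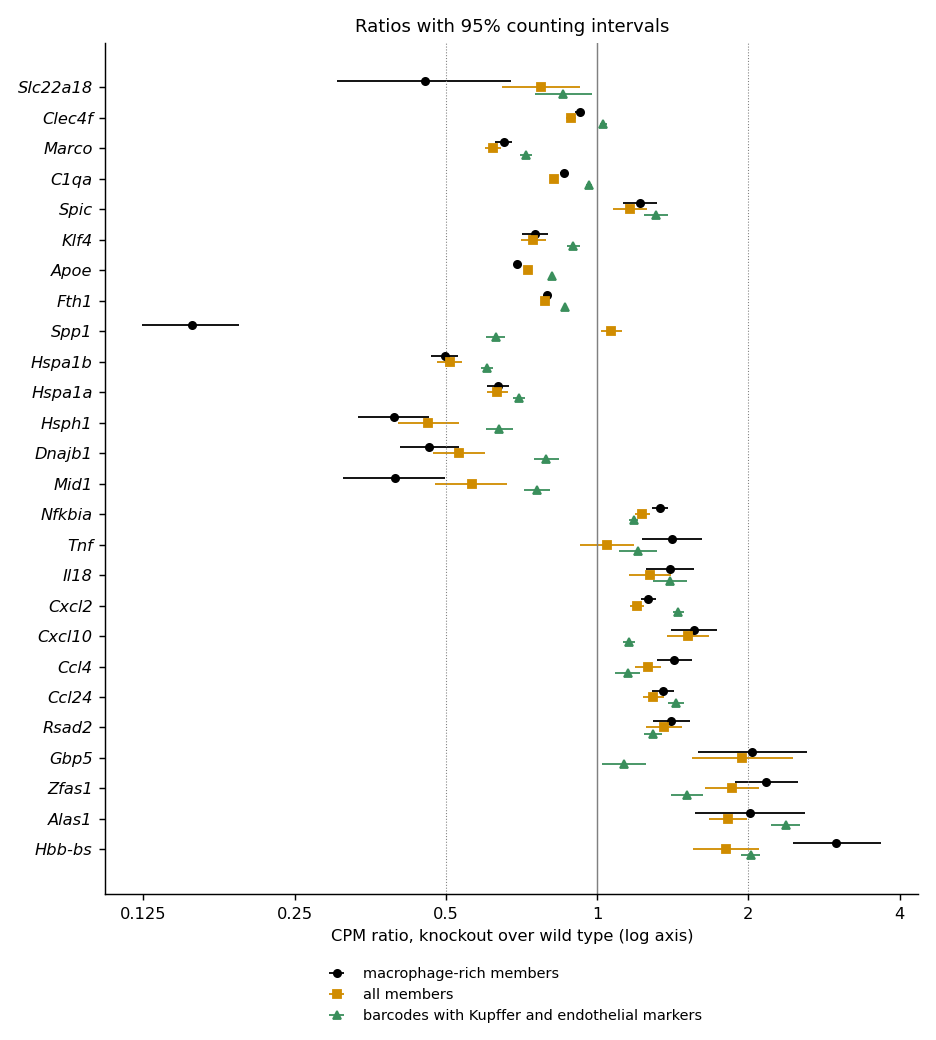
CPM ratio of knockout over wild type (horizontal, log axis) with 95% counting intervals for 26 genes in macrophage-rich members (black), all members (orange) and barcodes that carry Kupffer and endothelial markers together (green). Hspa1b is at 0.497 and Nfkbia at 1.33 in macrophage-rich members with the green points on the same side of 1, while Spp1 moves from 0.156 to 1.07 between the black and orange points.

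Genes tied to the series title were sparse or level. Ascl2, a target of the Wnt pathway, had 0 and 2 UMIs in the macrophage-rich members, too few for a comparison. Ctnnb1, which encodes β-catenin, had 127 and 131 CPM, a ratio of 0.970 (0.871 to 1.08), and its partner Tcf7l2 a ratio of 0.995 (0.958 to 1.03). Of 22 measured Wnt genes 13 had a ratio above 1, none of the 12 tested was called, and the median log2 ratio was 0.03. Of 11 measured genes of the imprinted domain, Slc22a18 alone was called. Its neighbour Cd81, a tetraspanin gene, had a ratio of 0.825 (0.790 to 0.862), and Kcnq1ot1, the long noncoding RNA of the domain, 0.869 (0.759 to 0.994). Phlda2, an imprinted growth regulator, was at 0 in each library.

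In the growth factor axis, Igf1, the mediator of growth hormone action, had 812 and 695 CPM, a ratio of 1.17 (1.12 to 1.22). Ghr, the growth hormone receptor gene, was at 1.16 (1.05 to 1.27). Igfbp1, which binds that factor and is known as a hepatocyte product, was called lower on 24 and 44 UMIs, a ratio of 0.490 (0.285 to 0.824), and was at 0.310 in hepatocyte-gated barcodes. Of 17 measured genes of the axis 8 had a ratio above 1.

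**Figure D5:**
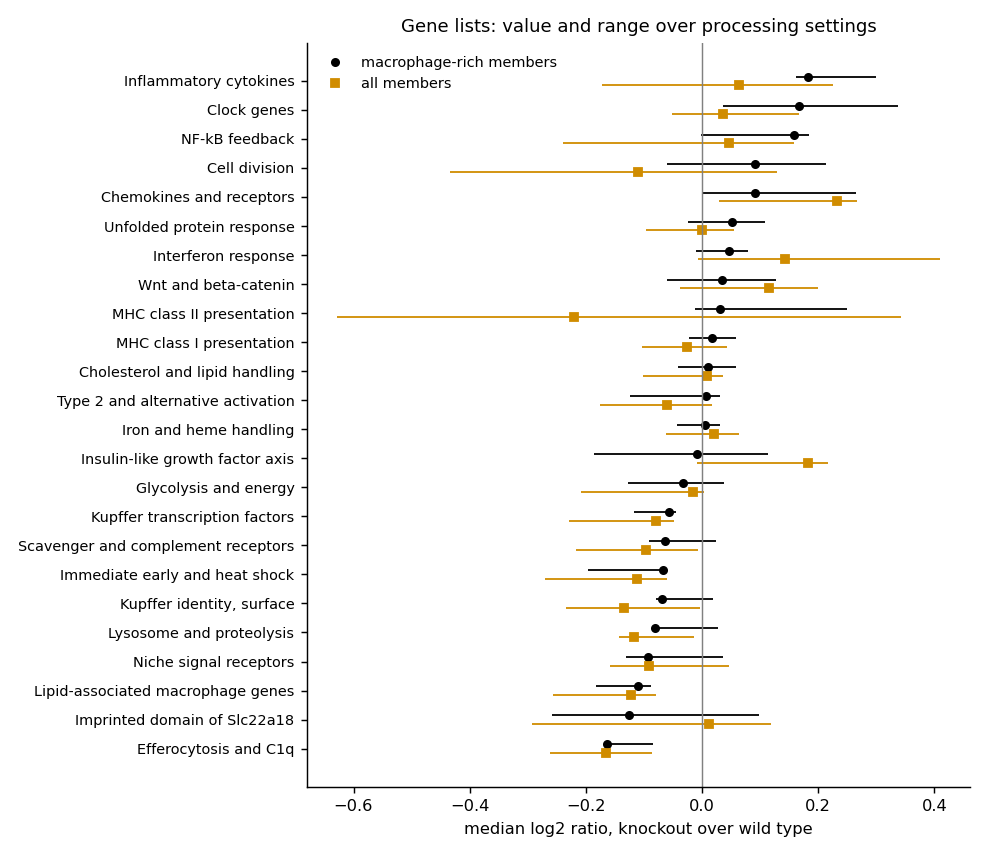
Median log2 ratio of knockout over wild type (horizontal) for 24 gene lists in macrophage-rich members (black) and all members (orange), with lines for the lowest and highest value over 13 processing settings. In macrophage-rich members the inflammatory cytokine list lies highest at 0.18 and the efferocytosis list lowest at −0.16, while over all members the chemokine list lies highest at 0.23 and the MHC class II list lowest at −0.22.

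Over all 2302 members 40 of 12509 genes were called, or 0.32%, with 30 higher (0.24%) and 10 lower (0.0799%). Those named next are known from hepatocytes. Onecut1, a hepatocyte transcription factor gene, had 849 and 201 UMIs, a ratio of 3.62 (3.10 to 4.25). Fga, the fibrinogen alpha chain, had 4118 and 1417 UMIs, a ratio of 2.49 (2.34 to 2.65). Cyp7a1, which limits the rate at which bile acids are made, had 1072 and 414 UMIs, a ratio of 2.22 (1.98 to 2.49). G6pc, the last enzyme of glucose release, had 933 and 3325 UMIs, a ratio of 0.241 (0.224 to 0.259), and Tat, tyrosine aminotransferase, 0.495 (0.472 to 0.520).

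These all-member values followed the members outside the macrophage-rich set. For the 30 genes called higher, a median of 87.9% of the UMIs came from those members, and for the 10 called lower 86.9%. In hepatocyte-gated barcodes 28 of the 30 and 7 of the 10 had an interval on the same side of 1. Of all 12509 genes tested, 14.9% had an interval above 1 there and 11.1% one below 1. Within the macrophage-rich members Fga was at 1.36 (1.21 to 1.53) and Onecut1 at 1.93 (1.12 to 3.41). Calls shared by both sets were Slc15a2, the fatty-acid hydroxylase gene Cyp4a10 and Gm32695 (higher), and Hsph1, the ephrin gene Efna1 and Gm12703 (lower). The other 34 calls of each set were made in that set only, which is no test of a difference between the sets.

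Members also differed among themselves. The Fano factor is the variance over the mean of thinned counts. It was largest in macrophage-rich members for Tmsb4x, a thymosin that binds actin, at 13.5 (knockout) and 13.3 (wild type). Malat1, a nuclear noncoding RNA, was at 9.60 and 12.1, and Apoe at 10.4 and 9.72. Tmsb4x also had a high mean, at 23.4 and 23.8 UMIs, against 1.32 and 1.01 for Cxcl2. The part of mean level in these values was not tested. The median over 3811 genes was 1.09 in each. Over all members the hepatocyte gene Fabp1, a fatty acid carrier, led at 19.7 and 23.9, and in the macrophage-rich members it was at 5.75 and 10.8. Cxcl2 had a Fano factor of 4.62 and 3.90, with UMIs in 35.4% and 33.4% of thinned macrophage-rich members.

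Macrophage-rich members with at least 2 Timd4 UMIs were set beside those with none, both with at least 3 UMIs of the other rule markers and thinned. The split held 457 and 131 knockout cells and 410 and 110 wild-type cells. Of 4986 genes, 63 were at least 1.5-fold higher and 125 at least 1.5-fold lower in the Timd4 cells of each library, with intervals that exclude 1. Egr1, an immediate early gene, had ratios of 3.11 (knockout) and 1.96 (wild type), Nfkbia 2.51 and 1.83, and Cd86, a costimulatory ligand, 2.28 and 1.53. The hepatocyte products Trf, transferrin, at 0.55 and 0.64, and Cps1, a urea cycle enzyme, at 0.48 and 0.52 were lower. Cells with Timd4 were also deeper before thinning, with medians of 9847 and 10276 UMIs against 1995 and 2069. Their median hepatocyte share was 0.397% and 0.408%, against 1.45% and 1.43%; the part of depth and hepatocyte RNA was not tested.

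Barcodes that carry Kupffer and endothelial markers together numbered 1162 and 1009. Of the 21 genes called higher in the macrophage-rich members, 14 had an interval above 1 there and none below, and 18 of the 19 called lower had one below 1. Of all 9673 genes tested, 18.1% had an interval above 1 there and 16.8% one below 1. In monocyte-gated barcodes the same held for 11 and 8, against 8.12% and 8.60% of all genes tested. Tmx4, called lower in the macrophage-rich members, was on the other side there at 1.30 (1.07 to 1.57). In endothelial-gated barcodes 11 and 12 had an interval on the same side, against 12.8% and 13% of all genes tested, and Ccn1 was on the other side at 1.07 (1.01 to 1.14). In hepatocyte-gated barcodes 5 and 10 did, against 12.6% and 12.2%, with Hba-a2 and Gm12703 on the other side. These barcodes share their libraries with the members and are not independent of them. In the barcodes with Kupffer and endothelial markers, Hspa1b had a ratio of 0.604, Marco 0.722, Nfkbia 1.18, Cxcl2 1.45 and Il18 1.40. Gbp5 had 1.13 (1.02 to 1.25), below the interval of the macrophage-rich members, and Clec4f 1.03.

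Dividing Kupffer cells, set apart by Mki67 and Top2a, numbered 37 and 43. Slc15a2 had 25 and 2 UMIs there, a ratio of 17.8 (4.44 to 155). Hspa1b was at 1.06 (0.852 to 1.33), on 145 and 194 UMIs. Mid1 was at 1.1 (0.580 to 2.04) and Dnajb1 at 1.61 (0.963 to 2.70), on at most 35 UMIs a library. The ratios of the last 3 genes were above 1, with intervals that include 1. Hsph1 went the other way, at 0.606 (0.340 to 1.04) on 20 and 47 UMIs. These genes were chosen after their values were seen, and the difference itself was not tested.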

How the data were processed

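The authors deposited, for each liver library, a matrix of raw UMI counts per gene and barcode and the file headers name Cell Ranger 8.0.1. The submitters' processing notes also name STAR and the mm10 build; the annotation is not given in the sources used here. Of 33696 gene identifiers, 32012 matched GENCODE vM21 (GRCm38), which gave the coordinates. The members and gene lists were chosen with earlier results of these data known.

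Counts were summed over members and scaled to CPM, and ratios of CPM and shares of barcodes carry exact Clopper-Pearson 95% intervals. Ratios of shares carry log-normal 95% intervals. UMIs passed through PCR, so intervals cover counting error only. Genes whose CPM stayed under 10% of that in the highest other cell class in each library were set aside as possible free RNA, 788 over all members and 1032 in the macrophage-rich members among those with at least 50 UMIs. List medians use genes with at least 20 UMIs and log2 ratios with a prior count of 0.5. A hepatocyte-gated barcode had at least 2% of its UMIs from the hepatocyte list. Member depth ran from 500 to 88337 UMIs (median 5268) in the knockout library and from 504 to 90166 (median 5238) in the wild type. Doublets were not removed in the main results. Scrublet (scanpy 1.11.5, expected share 8%) marked 2.64% and 3.23% of barcodes and 21 and 14 members, and leaving them out was an alternative.

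Candidates for naming were the 15 largest ratios in each direction past the size rule over all members. Mitochondrial, ribosomal, haemoglobin and immune receptor genes were left out of these. Added to them were up to 6 called genes per list and direction, or otherwise its 3 most counted, the 4 rule markers, Slc22a18, and the 10 largest Fano factors. Only some of these candidates are given in the text, and other genes were picked after their values were seen. The other settings tried changed the marker limits, the gene and mitochondrial limits, the scaling, the weights, the depth and the size rule. The ratio and call steps were tested on simulated Poisson totals. These did not hold UMIs crowded into few cells, so that case was not tested. Python 3.11.15, numpy 2.4.6, scipy 1.17.1, pandas 2.3.3 and matplotlib 3.10.9 were used.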

Additional observations from a re-analysis of the deposited data

Results flagged for a closer look

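The noncoding RNA Gm12703 moved in opposite directions in macrophage-rich members and hepatocyte-gated barcodes. It had 91 UMIs in the knockout library and 187 in the wild type in the former, a ratio of 0.437 (0.337 to 0.565), and a ratio of 3.12 (1.08 to 11) on 15 and 5 UMIs in the latter. The ratio was 0.822 in endothelial-gated barcodes, 1.1 in monocytes and 0.325 in B cells. Both intervals exclude 1, and the difference itself was not tested.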

How the results depend on the processing

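The share ratio of 1.24 ran from 1.19 to 1.27 over the settings in which it was computed. Over all members, where 30 genes were called higher and 10 lower, the counts moved to 18 lower with a rule sum of at least 6, to 68 higher and 21 lower with no endothelial UMI, and to 46 and 18 with no lymphocyte or division UMI. They moved to 47 higher with at least 1000 genes, to 24 lower with each member weighted equally, to 12 higher after thinning, and to 155 and 77 at a ratio of 1.5. Outside the macrophage-rich set 78 were higher and 51 lower, and within it 19 were lower. Slc22a18, at 0.773, moved to 0.550 with equal weights and to 0.455 in the macrophage-rich members. In those members, where 21 were higher and 19 lower, the counts moved to 41 lower with no endothelial UMI, 36 higher with at least 1000 genes, 12 lower without the deepest 5%, 33 and 30 with equal weights, and 106 and 99 at a ratio of 1.5 (2.12% of genes tested). Slc22a18 moved to 0.777 there after thinning, where 2 of the 21 and 5 of the 19 calls were kept. Reversed values were Cbfa2t3 at 1.24 with no endothelial UMI, Gm12703 at 2.84 outside the macrophage-rich set and Gm56592 at 0.647 after thinning; the cause was not tested. Of the 40 genes called in the macrophage-rich members, 520 comparisons left 475 within their interval. Slc15a2, Zfas1, Mid1, Cyp4a10, Spp1, Serpina1e, C9, Gm32695, Hba-a1, Hba-a2 and Hbb-bt stayed past 2-fold in all 13 settings run there. List medians kept 1 sign in all settings for 7 of 24 lists in the macrophage-rich members and 8 of 24 over all members. No paired analysis was possible because each genotype has 1 library. Depth limits genes such as Ascl2 and Slc22a18, which had few UMIs in the macrophage-rich members.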

Other observations

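Genes outside the lists also differed in the macrophage-rich members without reaching the size rule of 2-fold. Kitl, which encodes stem cell factor, had 44.1 CPM in the knockout library and 22.8 in the wild type, a ratio of 1.93 (1.54 to 2.43). Fn1, the matrix protein fibronectin, had 123 and 75 CPM, a ratio of 1.65 (1.45 to 1.87). The fatty-acid sensor gene Ppara had 53.0 and 31.7 CPM, a ratio of 1.67 (1.37 to 2.04). The collectin gene Colec12, a scavenger receptor, had 98.7 and 64.3 CPM, a ratio of 1.53 (1.33 to 1.77), and was at 1.11 (1.03 to 1.18) over all members. These genes were chosen after their values were seen.

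The cell division list gave no call in the macrophage-rich members. Of its 16 measured genes 9 had a ratio above 1, and the median log2 ratio was 0.09. Mcm3 and Mcm6, subunits of the replicative helicase picked after their values were seen, did not pass the rule. Mcm3 had 76 and 115 UMIs, a ratio of 0.594 (0.439 to 0.801), and Mcm6 40 and 64 UMIs, a ratio of 0.562 (0.369 to 0.847).

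Some rare transcripts came from few cells. Alox15, a lipoxygenase of resident peritoneal macrophages, had 42 UMIs in the knockout and none in the wild-type macrophage-rich members, in 0.328% of the knockout cells. Toll-like receptor gene Tlr7 had 116 and 88.6 CPM, a ratio of 1.31 (1.16 to 1.49), and Tlr4 71.2 and 69.1 CPM, a ratio of 1.03 (0.889 to 1.19).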
